A study of Mus musculus with 12 samples.

Results

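Metalloproteases and their inhibitors remodel the matrix of the endocardial cushions, the swellings that become heart valves. A list of 10 such genes was followed by gene symbol: the proteases Adam19, Adam23, Adamts1, Adamts5, Adamts9, Mmp2, Mmp14 and Mmp15, and the tissue inhibitors Timp2 and Timp3. Of the 10 genes, 7 had a probe in the platform's gene table, with 14 probes in all, out of 19057 genes and 45281 probes. Adam19, Adamts5 and Mmp15 had no probe there and were not analysed here. Each gene was read from its brightest probe, the probe with the highest mean over all arrays.

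RNA came from 2 dissected regions of mouse embryos. The atrioventricular canal (AVC) is the segment in which the cushions form, and the primary ventricle (labelled LV) is the adjacent chamber. With 3 arrays each, the groups were AVC E10, AVC E9, LV E10 and LV E9, where E10 and E9 are embryonic days. Genotype, strain and treatment are not given in the labels, and whether the 3 samples of a group came from separate litters is not given either, so that p-values measure only the spread between these samples. AVC was compared with LV to find genes of the valve-forming region, and E10 with E9 to follow change with age around the time mesenchymal cells enter the cushions. The labels give only the embryonic day, not how far this step had gone.

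Values are background-subtracted intensities on Illumina bead arrays, scaled to a mean of 386 on each array. A value was taken as above background when it exceeded the size of the most negative value on its array, 22.4 to 29.6. A gene was called when its adjusted p from limma was under 0.05, and log2 differences are given with their SE. Marker genes bore out the tissue labels: Rspo3, a Wnt agonist of the canal, ran from 656 to 1524 in AVC E10 and from 861 to 1210 in AVC E9, against 53.9 to 77.4 in LV E10 and 14.3 to 90.1 in LV E9. Nppa, the natriuretic peptide of chamber muscle, averaged 10640 in AVC E10 and 8113 in AVC E9, against 26660 in LV E10 and 26190 in LV E9. Of 4 canal muscle markers, 4 were called higher in AVC at E10 and 3 at E9, where 2.06% and 0.855% of all genes were. Chamber muscle markers set the tissues apart only in part. Of 6, 2 were called lower in AVC at E10 and 1 at E9, where 0.241% and 0.168% of all genes were. At E9 1 of the 6 had a positive difference of AVC over LV. For 3 of the 12 arrays the closest array lay in another group. The closest array to AVC E10 replicate 1 was AVC E9 replicate 2, and the reverse held too (r = 0.979 across genes), while replicate 1 of LV E10 was closest to replicate 2 of LV E9 (r = 0.969). Counts of called members are given with and without the 2 E10 arrays, and fits leaving out each array in turn are given where they change a call.

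As background, cushions begin as a hyaluronan-rich jelly between endocardium and muscle, and endocardial cells then invade it by an endothelial-to-mesenchymal transition. MMP14 is a membrane-anchored collagenase that, with TIMP2 as a bridge, activates the secreted gelatinase MMP2. TIMP3 is bound to the matrix and also inhibits ADAM and ADAMTS enzymes. ADAMTS1, ADAMTS5 and ADAMTS9 cut versican, the large proteoglycan of the jelly. ADAM23 belongs to the ADAM family but lacks a working catalytic site and binds LGI proteins. In a whole dissected region, fewer cells of a type and less RNA per cell cannot be told apart.

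The stretches 250 bases upstream of the transcription start were available for 6 of the 7 measured genes (RefSeq, build GRCm38.p6). They are shown for 4 of these 6, Mmp14, Adamts1, Timp2 and Timp3, whose log2 intensities all correlated with each other at 0.77 or more over the 12 arrays. Capitals mark CACCTG, an E-box bound by Snail and ZEB proteins, and GGGCGG, the GC box bound by SP1-like factors, each on either strand (CAGGTG and CCGCCC on the other). The windows lie at chr14:54431348-54431597 (Mmp14, plus strand), chr16:85803114-85803363 (Adamts1, minus strand), chr11:118355412-118355661 (Timp2, minus strand) and chr10:86300162-86300411 (Timp3, plus strand).
Mmp14: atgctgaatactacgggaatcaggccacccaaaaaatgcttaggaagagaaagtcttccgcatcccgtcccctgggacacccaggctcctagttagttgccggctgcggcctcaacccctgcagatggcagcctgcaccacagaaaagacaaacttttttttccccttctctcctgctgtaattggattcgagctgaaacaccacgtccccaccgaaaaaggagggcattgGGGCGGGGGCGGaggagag
Adamts1: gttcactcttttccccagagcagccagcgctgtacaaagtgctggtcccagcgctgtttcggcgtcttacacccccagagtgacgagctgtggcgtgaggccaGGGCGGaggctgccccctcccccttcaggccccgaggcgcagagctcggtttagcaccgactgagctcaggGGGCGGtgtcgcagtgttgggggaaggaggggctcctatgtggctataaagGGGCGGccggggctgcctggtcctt
Timp2: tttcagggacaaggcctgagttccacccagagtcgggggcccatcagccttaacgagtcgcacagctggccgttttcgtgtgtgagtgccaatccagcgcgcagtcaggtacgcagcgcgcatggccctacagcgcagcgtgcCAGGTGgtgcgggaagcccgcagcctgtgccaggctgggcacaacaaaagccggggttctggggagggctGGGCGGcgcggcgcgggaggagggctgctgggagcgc
Timp3: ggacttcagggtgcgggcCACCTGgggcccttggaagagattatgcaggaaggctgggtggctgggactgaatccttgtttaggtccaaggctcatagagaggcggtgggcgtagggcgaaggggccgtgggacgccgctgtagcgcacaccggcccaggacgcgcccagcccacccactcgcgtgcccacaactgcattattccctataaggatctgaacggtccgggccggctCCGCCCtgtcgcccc

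The E-box letters stood in 2 of the 6 promoters, those of Timp2 (107 bases upstream of the start) and Timp3 (232 bases upstream). They occurred in 17.2% of all 32851 promoter windows of this length. GC boxes stood in 5 of the 6, with 3 in Adamts1, 2 adjoining ones in Mmp14, 1 each in Adamts9, Timp2 and Timp3 and 0 in Adam23, and in 32.7% of all windows. TGANTCA, the AP-1 site known from many MMP promoters, stood in 0 of the 6 and in 6.75% of all windows. The 3 motifs did not overlap in these windows, and a match is a run of letters, not a measured binding site.

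Adam23 and Mmp14 were higher in the canal than in the ventricle at E10, and Adam23 at E9 as well. At E10 all 7 measured members had a positive log2 difference of AVC over LV and 2 of 7 were called higher, Adam23 and Mmp14, where 2.3% of all genes were called in either direction and 2.06% were called higher. The median log2 difference of the 7 was 0.85, beside 0.07 over all genes and 0.18 over genes above background in a group. At E9 only Adam23 of the 7 was called, where 1.02% of all genes were called. The median difference of the 7 was 0.40, beside 0 over all genes and 0.08 over genes above background in a group. Over both ages together 3 of 7 were called higher (Adam23, Mmp14 and Adamts1), where 5.47% of all genes were called and 4.79% were called higher. All 7 members were above background on all arrays of a group. Among the 9931 such genes, 3.97% were called at E10, 1.76% at E9 and 9.53% over both ages. All 3 AVC arrays lay above all 3 LV arrays for 5 of the 7 members at E10 and for 4 of 7 at E9, as they did for 13.1% of all genes at E10 and 11.8% at E9.

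**Figure D1:**
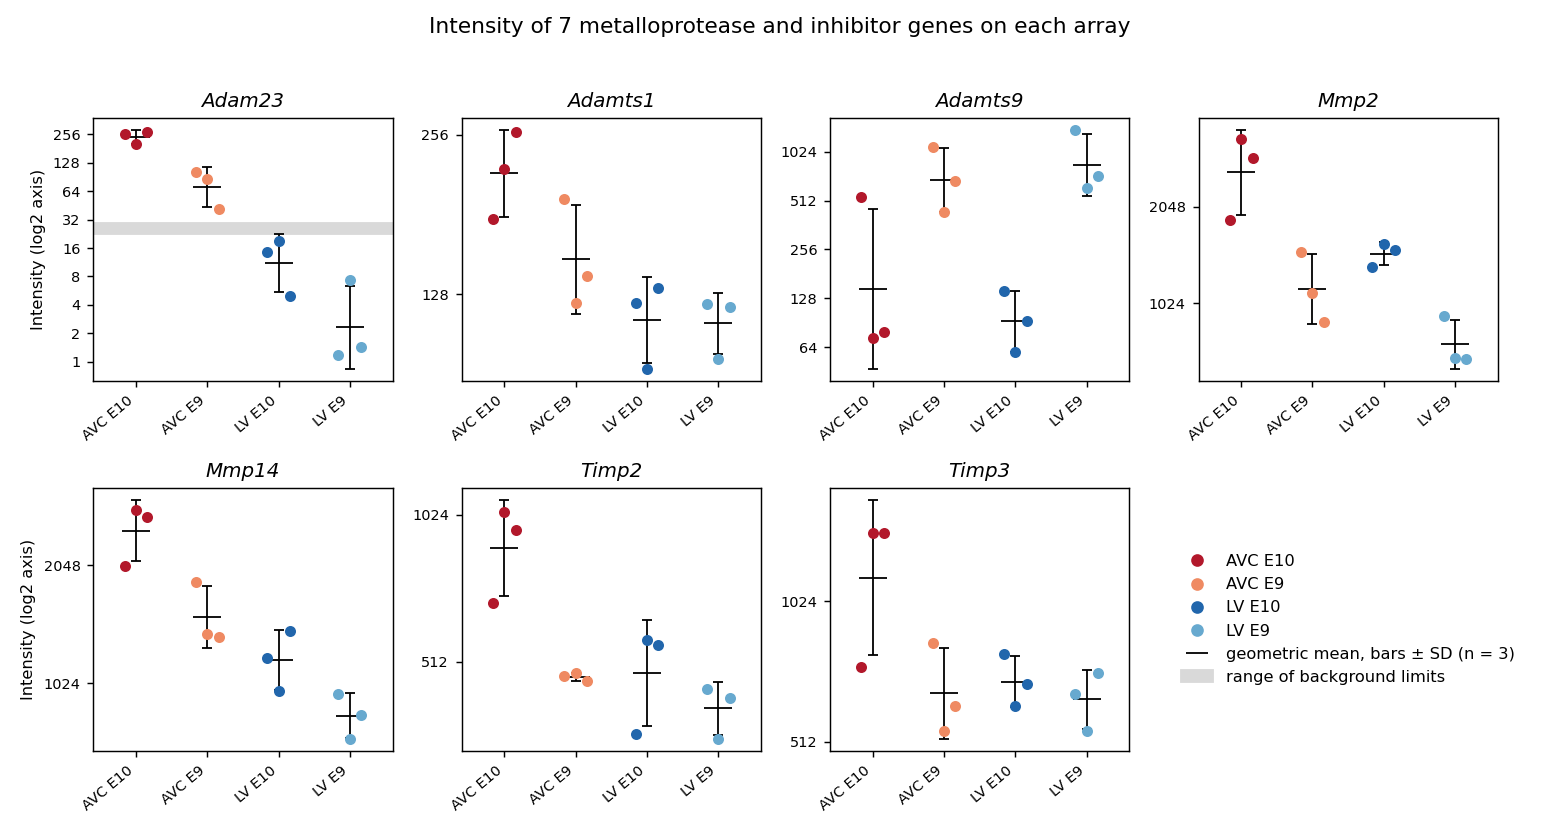
Intensity of the 7 measured genes on each of the 12 arrays (log2 axis, points are replicates 1, 2 and 3 from left to right), with the geometric mean and SD of each group and, for Adam23, the range of the arrays' background limits in grey. Adam23 lies above the grey band on all AVC arrays and below it on all LV arrays, and Adamts9 is lower in the E10 arrays than in the E9 arrays, except for replicate 1 of AVC E10, at 537.

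Adam23 had the largest tissue difference of the 7 members at each age. Its intensities were 256, 201 and 274 in AVC E10 and 103, 85.3 and 41.3 in AVC E9, against 14.6, 18.8 and 4.98 in LV E10 and 1.17, 7.39 and 1.45 in LV E9. Every AVC array was above its background limit and none of the 6 LV arrays was, so that only bounds can be given for the fold. AVC exceeded LV at least 9.66-fold at E10, at least 2.66-fold at E9 and at least 5.07-fold over both ages. These bounds set the AVC mean of log2 values against the lowest signal above background on the LV arrays.

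The p-values belong to the fitted log2 differences, not to the bounds, and both depend on where values near 0 are floored. These differences were 4.44 ± 0.76 at E10 (adjusted p = 0.0276) and 4.94 ± 0.76 at E9 (adjusted p = 0.0279). Over both ages the difference was 4.69 ± 0.54 (adjusted p = 0.0031). Within the canal the E10 and E9 groups of Adam23 did not overlap, with means of 244 ± 38.2 in AVC E10 and 76.4 ± 31.5 in AVC E9 (SD, n = 3). The change with age missed the threshold there (log2 1.76 ± 0.76, adjusted p = 0.393) and over both tissues (2.01 ± 0.54, adjusted p = 0.0577), a value that takes in LV intensities below background. A second Adam23 probe was above background on 0 of 12 arrays and gives no check. The calls at single ages were fragile: the E10 call was lost without any 1 of the 3 AVC E10 arrays or of replicates 2 and 3 of LV E10 (adjusted p 0.06 to 0.11). The E9 call was lost without any 1 of the 3 AVC E9 arrays, of replicates 1 and 3 of LV E9, or of replicates 2 and 3 of AVC E10 (0.0522 to 0.104), and with values under 30 set to 30 (0.154). The call over both ages held with any array left out, at an adjusted p of 0.0124 or less.

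Mmp14, the membrane collagenase, was read at 2038, 2834 and 2721 in AVC E10 and at 1858, 1367 and 1345 in AVC E9. The ventricle gave 1190, 978 and 1392 in LV E10 and 963, 739 and 848 in LV E9. The groups followed the order AVC E10, AVC E9, LV E10, LV E9, and only the middle pair of neighbours overlapped. AVC was 2.13-fold higher than LV at E10 (log2 1.09 ± 0.19, adjusted p = 0.0304) and 1.95-fold over both ages (0.96 ± 0.14, adjusted p = 0.00671). At E9 the difference was 0.83 ± 0.19 with an adjusted p of 0.103, though the 3 AVC arrays all lay above the 3 LV arrays.

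Mmp14 was also 1.52-fold higher at E10 than at E9 over both tissues (0.60 ± 0.14, adjusted p = 0.0345). Within 1 tissue the change with age was 0.73 ± 0.19 in the AVC (adjusted p = 0.151) and 0.48 ± 0.19 in the LV (adjusted p = 0.223), with no overlap of E10 and E9 in either tissue. The E10 tissue call was lost without any of 4 arrays (replicates 2 or 3 of AVC E10, replicate 2 of LV E10 or replicate 3 of LV E9), with an adjusted p of 0.0534 to 0.121. It was also lost with 75th percentile scaling (adjusted p = 0.0518), the replicate number as a block (0.0559) and the mean of all probes (0.623). The age call was lost without any 1 of replicates 2 and 3 of AVC E10, 2 and 3 of AVC E9, 3 of LV E10 or 1 to 3 of LV E9 (0.0503 to 0.088). The block (0.0518) and the mean of all probes (-0.11, adjusted p = 0.976) lost the age call as well. The tissue call over both ages held with any array left out (adjusted p 0.00716 to 0.0238). The second Mmp14 probe was above background on 0 arrays.

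Mmp2, the gelatinase that MMP14 activates, rose with age, with the lowest adjusted p of the 7 members. Its intensities were 1864, 3328 and 2919 in AVC E10 and 1480, 1103 and 893 in AVC E9. In the ventricle they were 1330, 1571 and 1501 in LV E10 and 933, 690.4 and 687 in LV E9. All E10 arrays stood above all E9 arrays of the same tissue. E10 was 2.11-fold higher than E9 over both tissues (log2 1.08 ± 0.18, adjusted p = 0.0132), a call that held with any array left out (adjusted p 0.00458 to 0.043).

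The change of Mmp2 was 1.21 ± 0.25 in the AVC (adjusted p = 0.0827) and 0.94 ± 0.25 in the LV (adjusted p = 0.0903), and the difference between the 2, 0.27 ± 0.36 with a 95% interval of -0.55 to 1.09, was not called (adjusted p = 0.982). AVC over LV missed the threshold at E10 (0.84 ± 0.25, adjusted p = 0.154), at E9 (0.57 ± 0.25, adjusted p = 0.436) and over both ages (0.71 ± 0.18, adjusted p = 0.0602). Without replicate 1 of AVC E10, the lowest of its group, the last of these became 0.83 with an adjusted p of 0.025.

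Timp2, the inhibitor that bridges MMP14 and MMP2, was high in a single group. It read 677, 1037 and 954 in AVC E10 and 479, 486 and 469 in AVC E9, against 365, 567 and 555 in LV E10 and 452, 357 and 432 in LV E9. All 3 AVC E10 arrays lay above the other 9. No contrast passed the threshold: the log2 difference was 0.85 ± 0.21 for AVC over LV at E10 (adjusted p = 0.0847), 0.22 ± 0.21 at E9 (adjusted p = 0.82) and 0.87 ± 0.21 for E10 over E9 in the AVC (adjusted p = 0.112). The excess of the tissue difference at E10 over that at E9 was 0.63 ± 0.29, with an adjusted p of 0.937.

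Timp3, the matrix-bound inhibitor, had the same outline on its brightest probe, with more spread. The arrays read 741, 1434 and 1435 in AVC E10 and 833, 540.5 and 610.4 in AVC E9, against 788, 612 and 680.1 in LV E10 and 649.6, 540.2 and 719 in LV E9. Replicates 2 and 3 of AVC E10 stood above all other arrays, and replicate 1 fell among them. The difference at E10 was 0.74 ± 0.28 (adjusted p = 0.257), that at E9 0.04 ± 0.28 (adjusted p = 1), and that of E10 over E9 in the AVC 0.82 ± 0.28 (adjusted p = 0.251). The other Timp3 probes did not share this outline. One, above background on 11 arrays, gave 0.46 at E10, 0.40 at E9 and 0.61 for age in the AVC. Another, above background on 7 arrays, gave 0.27, 0.48 and 0.11.

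Replicate 1 of AVC E10 was the lowest of its group for Adamts1, Mmp2, Mmp14, Timp2 and Timp3 and the highest for Adamts9. Without that array 4 of 7 members were called for age in the AVC, where 0 were called with it. The share of all genes called was 2.44% without it and 0.551% with it. Mmp2 then had a log2 difference of 1.46 (adjusted p = 0.0206), Timp2 1.06 (adjusted p = 0.0381), Timp3 1.14 (adjusted p = 0.0336) and Adamts9 -3.17 (adjusted p = 0.0273). Leaving out replicate 1 of LV E10 called Timp2 alone in that comparison (adjusted p = 0.0479), where 1.63% of all genes were called. Without both arrays numbered 1 at E10, 3 members were called for AVC over LV at E10 (Mmp14, Timp2 and Timp3), where 3.62% of all genes were. At E9 1 was called (Adam23), beside 2.31% of all genes, and over both ages 4 were (Adam23, Mmp2, Mmp14 and Timp2), beside 6.98%. Adam23 at E10 then had an adjusted p of 0.0763. For age the same fit called Mmp2, Timp2, Timp3 and Adamts9 in the AVC (5.24% of all genes), Mmp2, Timp2 and Adamts9 in the LV (14% of all genes), and Mmp2, Mmp14, Timp2, Timp3 and Adamts9 over both tissues (18.3% of all genes). The share of all genes called was thus higher in each of these comparisons than with all 12 arrays.

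**Figure D2:**
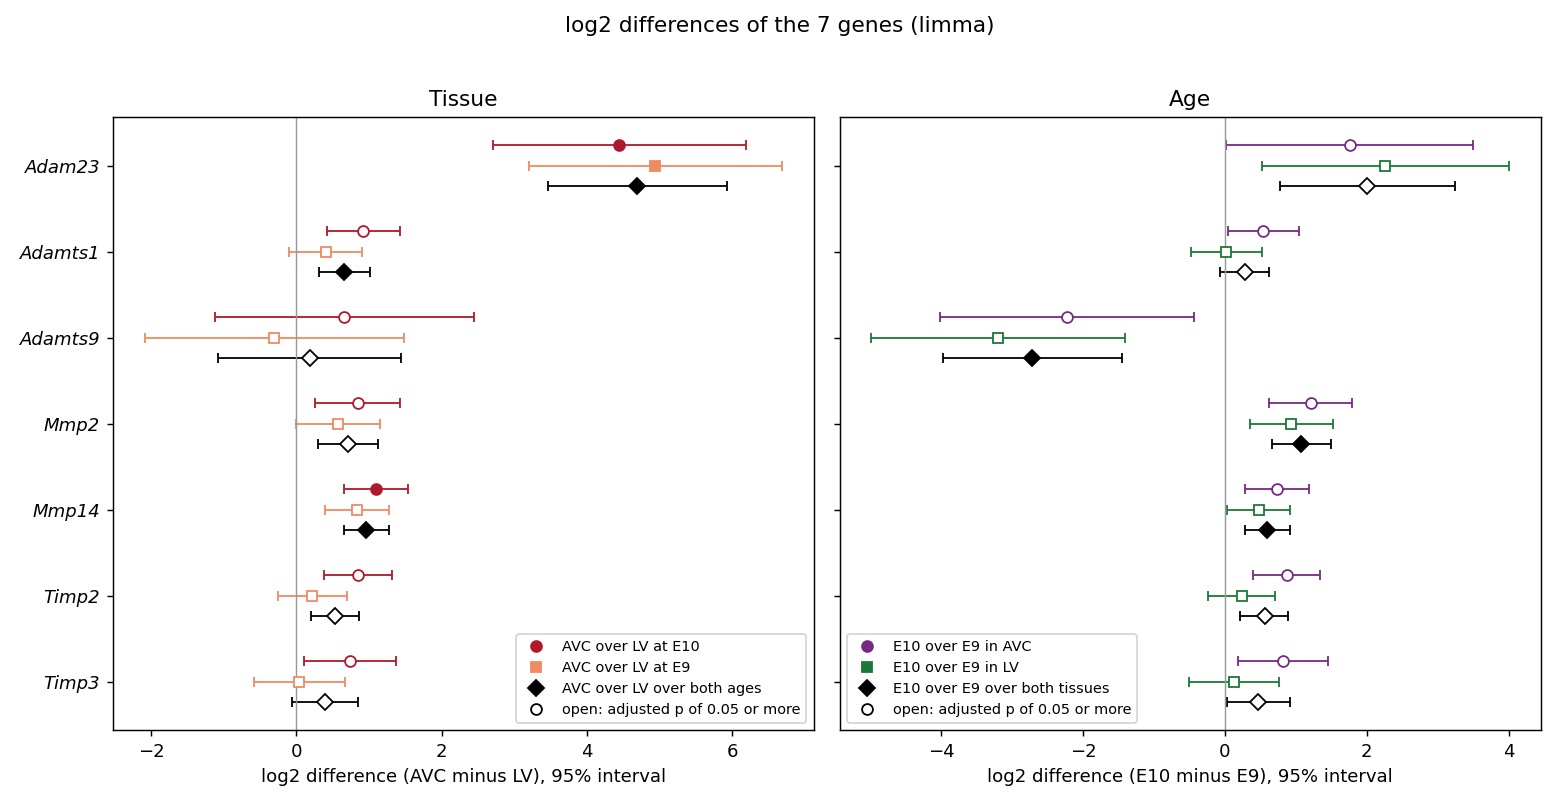
log2 differences from limma with 95% intervals for tissue (left, AVC minus LV) and age (right, E10 minus E9), with filled symbols where the adjusted p was under 0.05. Adam23 stands apart to the right of 0 for tissue, at 4.44 to 4.94, and Adamts9 to the left of 0 for age, at -3.20 to -2.23.

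Adamts1, a versican-cutting protease, read 178, 220.2 and 259 in AVC E10 and 194, 123 and 138 in AVC E9. It read 123, 92.6 and 132 in LV E10 and 123, 96.7 and 121 in LV E9. All AVC arrays of an age were above the LV arrays of that age, by a narrow margin at E9. The difference was called only over both ages (1.58-fold, log2 0.66 ± 0.15, adjusted p = 0.0455). It was 0.92 ± 0.22 at E10 (adjusted p = 0.0772) and 0.40 ± 0.22 at E9 (adjusted p = 0.585), and the joint call was lost without any 1 array except AVC E10 replicate 1 or AVC E9 replicate 2 (adjusted p 0.0569 to 0.11). It was also lost with values under 30 set to 30 (adjusted p = 0.063), quantile normalization (0.105), 75th percentile scaling (0.0576) and the mean of all probes (0.348). A second probe, above background on all 12 arrays, gave 0.57 at E10 and 0.28 at E9. Another probe was above background on 0 arrays.

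Adamts9, another versican protease, was lower at E10, whereas the other 6 members had positive differences of E10 over E9. It read 537, 73.0 and 79.8 in AVC E10 and 1088, 438 and 676 in AVC E9. In the ventricle it read 142, 59.7 and 93.1 in LV E10 and 1388, 608 and 722 in LV E9. E10 was lower than E9 by a factor of 6.56 over both tissues (log2 -2.71 ± 0.55, adjusted p = 0.0243).

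In the LV the E10 arrays of Adamts9 all lay below the E9 arrays (-3.20 ± 0.78, adjusted p = 0.0718). This difference was called without replicate 1 of AVC E10 (adjusted p = 0.0198), without replicate 1 of LV E10 (-3.51, adjusted p = 0.0416) and without both (0.00906). In the AVC replicate 1 of E10 overlapped with E9 (-2.23 ± 0.78, adjusted p = 0.268). AVC and LV overlapped at E10 (0.66 ± 0.78, adjusted p = 0.83, and -0.28 without replicate 1 of AVC E10) or at E9 (-0.31 ± 0.78, adjusted p = 1), and the intervals of these differences, -1.12 to 2.45 and -2.09 to 1.48, leave room for a several-fold difference either way. The age call was lost without any 1 of replicates 2 and 3 of AVC E10, 1 and 3 of AVC E9, 2 and 3 of LV E10 or 1 and 3 of LV E9 (adjusted p 0.0557 to 0.0646) and with the mean of all probes (-1.81, adjusted p = 0.0699). Its adjusted p was 0.00289 without replicate 1 of AVC E10. A dimmer second probe, above background on 7 arrays, gave -0.91 in each tissue (limma, unadjusted p = 0.273 in the AVC and 0.27 in the LV). Over both tissues its unadjusted p was 0.133, so it gives little support to the call. In the platform annotation the brightest probe has no transcript listed, whereas the second probe has one.

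Across age, then, 3 of 7 members were called over both tissues, Mmp2 and Mmp14 higher at E10 and Adamts9 lower, where 8.1% of all genes were called. Of all genes 4.62% were called higher and 3.48% lower. Among the 9931 genes above background on all arrays of a group, 14.1% were called. The limma fit called 0 of the 7 in the AVC alone, where 0.551% of all genes were called, and 0 in the LV alone, where 2.37% were. At an unadjusted p under 0.05 there were 7 of 7 members in the AVC and 4 of 7 in the LV, beside 12.5% of all genes in the AVC and 19.6% in the LV. The 3 E10 arrays lay above the 3 E9 arrays for 4 members in the AVC, as for 10.2% of all genes. In the LV they lay above for 2 members, as for 8.05% of all genes, and below for 1, as for 12.3%. The tissue by age interaction called 0 of 7 members and 0.0315% of all genes, and 0 of 7 had an unadjusted p under 0.05. Its log2 values for the 7 members ran from -0.50 to 0.97 with adjusted p-values of 0.937 or more.

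Over the 12 arrays, 6 members correlated positively with each other, from 0.525 to 0.936, while the coefficients of Adamts9 with them were negative and in part weak. The closest pair was Adamts1 and Mmp14 (Pearson's r of log2 values 0.936), followed by Mmp2 and Timp2 (0.894), Mmp2 and Mmp14 (0.89), Adamts1 and Timp3 (0.864), and Mmp14 and Timp2 (0.85). Mmp14 and Timp3 were at 0.809 and Timp2 and Timp3 at 0.804. The coefficients of Adam23, from 0.525 with Timp3 to 0.839 with Mmp14, take in its LV values below background. Adamts9 had negative coefficients with all 6 others, from -0.683 with Mmp2 to -0.174 with Adamts1. These coefficients describe 12 arrays that share their 4 groups, and no test was made of them.

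Among 9924 other genes above background in a group, those most like each called member were picked by the same coefficient. Mmp14 was most like Pdgfra, a receptor of cushion mesenchyme (0.977), which averaged 1599 ± 354 in AVC E10 and 668 ± 214 in AVC E9, against 310 ± 33.3 in LV E10 and 222 ± 56.8 in LV E9. Flywch2 came next at 0.97. Adamts9 was most like Selenoi (0.984) and Slc2a1, the glucose transporter GLUT1 (0.978). Slc2a1 averaged 7534 ± 2951 in AVC E10 and 14230 ± 2010 in AVC E9, and 6343 ± 1720 in LV E10 and 14580 ± 1484 in LV E9, and its highest array in AVC E10, at 10910, was replicate 1, as it was for Adamts9. For Adam23 the coefficient picked St8sia2 and Jam2, but all 3 genes lay below the background limit on every LV array, where values have no order, so no likeness is read from it. Mmp2 was most like Mdfic (0.985) and Pcdhb22 (0.972), and Adamts1 like Ern1 (0.956) and Flna (0.953).

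**Figure D3:**
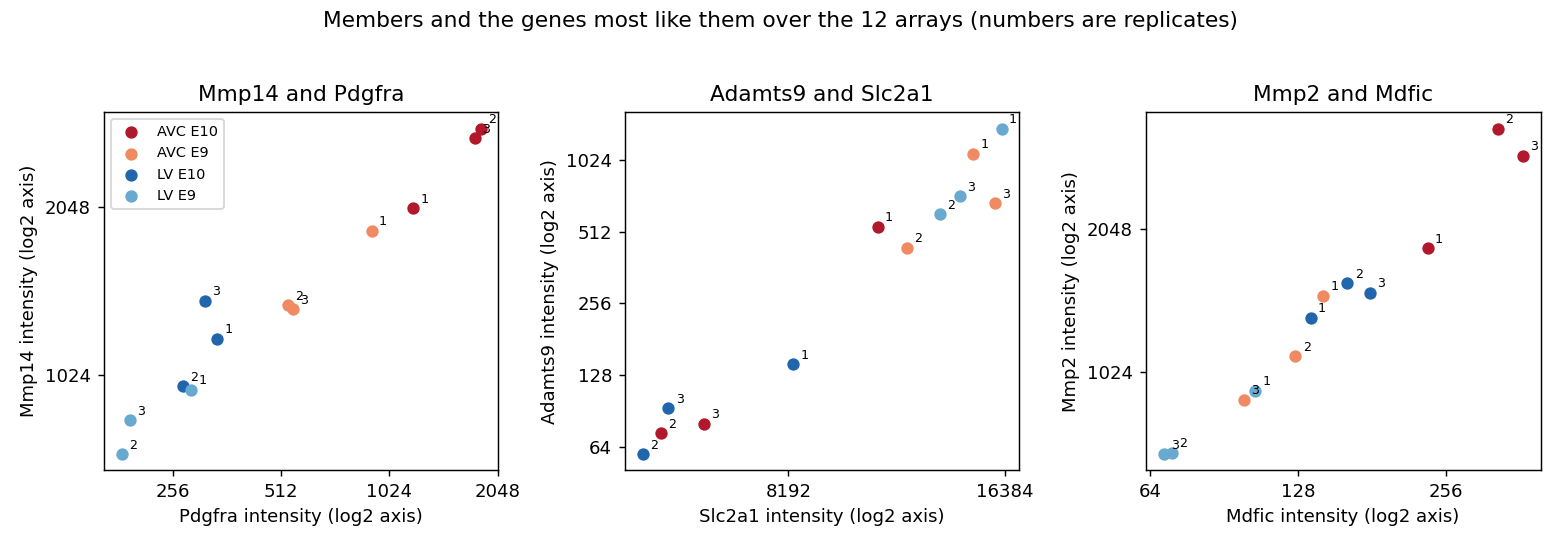
Intensity of Mmp14, Adamts9 and Mmp2 on each of the 12 arrays (vertical axes, log2) against a gene among the 2 most like each of them (horizontal axes, log2), coloured by group and numbered by replicate. Replicate 1 of AVC E10 has an AVC E9 array as its nearest neighbour in the plots of Mmp14 with Pdgfra and of Adamts9 with Slc2a1.

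Markers of other cells moved with these results. The summed intensity of 5 cushion mesenchyme markers (Twist1, Snai1, Sox9, Pdgfra, Prrx1) ran from 5725 to 6876 in AVC E10 and from 3105 to 4669 in AVC E9, against 1002 to 1828 in LV E10 and 798 to 1221 in LV E9, in the group order seen for Mmp14. Already at E9 3 of the 5 were called higher in AVC than LV, where 0.855% of all genes were. For E10 over E9 in the AVC all 5 differences were positive and 0 were called, beside 0.551% of all genes. The measured epicardial markers Tbx18, Tcf21 and Upk3b summed to 3662 to 4694 in AVC E10 and 483 to 660.4 in AVC E9, and to 2051 to 5530 in LV E10 and 174 to 494 in LV E9, higher at E10 in both tissues as Mmp2 was. The 6 endothelial and endocardial markers, of which Kdr was above background on 0 arrays, summed to 3446 to 4093 in AVC E10 and 1931 to 2666 in AVC E9, against 2502 to 2748 in LV E10 and 1756 to 1984 in LV E9. These sums too were higher at E10 in both tissues, as Mmp2 was. Over both tissues 3 of these 6 and 2 of the 3 epicardial markers were called higher at E10, where 4.62% of all genes were. The part of these cell types in the protease differences was not tested. Of 4 endoderm markers, Epcam, Foxa2 and Shh were above background on 0 arrays. The epithelial cadherin Cdh1 was above background on 2 of 3 arrays in AVC E10, 3 in AVC E9, 2 in LV E10 and 3 in LV E9, with means of 34.9 in AVC E10 and 135 in AVC E9, and of 36.4 in LV E10 and 74.1 in LV E9, and was not called in any contrast.

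Most other members of the same families were not called. Of 17 other measured MMP genes, 5 were above background in a group. Over both ages 4.79% of all genes were called higher in AVC than LV, and 1 of the 17 was. This was Mmp11, a stromal protease processed by furin, at 101, 198 and 211 in AVC E10 and 74.3, 62.3 and 36.1 in AVC E9, against 21.9, 61.7 and 62.6 in LV E10 and 13.2, 4.83 and 6.67 in LV E9 (log2 2.38, adjusted p = 0.0125). All 3 LV E9 values lay below the background limit, so the size of this difference depends on the floor. With age over both tissues 4 of the 17 were called, 3 higher and 1 lower at E10, where 8.1% of all genes were called. Mmp23 averaged 452 ± 109 in AVC E10 and 91.8 ± 34.3 in AVC E9, and 331 ± 142 in LV E10 and 77.5 ± 20.04 in LV E9 (log2 2.18 for E10 over E9 over both tissues, adjusted p = 0.00851). Mmp11 (2.05, adjusted p = 0.0204) rose with it, and the membrane-anchored Mmp17 fell by 1.20 on the log2 scale (adjusted p = 0.0391). Mmp16 was called as well (adjusted p = 0.0204), but was above background on 2 of 3 arrays in each E10 group and on 0 E9 arrays, and its call and that of Mmp11 were lost with values under 30 set to 30 (adjusted p = 0.357 for Mmp16 and 0.0647 for Mmp11).

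Of 15 other measured ADAMTS genes, 9 were above background in a group. Their median log2 difference of AVC over LV at E10 was 0.78, near the 0.85 of the 7 members, and 12 of 15 were positive. All AVC arrays lay above all LV arrays at E10 for 5 of the 15, as for 13.1% of all genes. At E9 their median was 0. The median at E10 was 0.39 for 10 other ADAM genes and 0.09 for 17 other MMP genes. With age over both tissues 2 of the 15 ADAMTS genes were called, where 8.1% of all genes were. Of these, 1 was also called with tissue over both ages, where 5.47% of all genes were. Adamts19 averaged 384 ± 33.0 in AVC E10 and 151 ± 35.7 in AVC E9, and 318 ± 28.7 in LV E10 and 211 ± 45.8 in LV E9. It was called higher at E10 within the AVC (log2 1.37, adjusted p = 0.0300) and over both tissues (0.99, adjusted p = 0.0074), the call within the AVC being lost in 7 of 12 fits leaving out 1 array. Adamts10, which binds fibrillin microfibrils, averaged 98.8 ± 23.1 in AVC E10 and 27.9 ± 11.03 in AVC E9, against 27.1 ± 9.85 in LV E10 and 11.7 ± 6.78 in LV E9. It was called higher in the AVC over both ages (1.62, adjusted p = 0.0311) and higher at E10 over both tissues (1.59, adjusted p = 0.0289), with all 3 LV E9 values below the background limit. The tissue call of Adamts10 was lost in 8 of 12 fits leaving out 1 array, and with quantile normalization (adjusted p = 0.103), 75th percentile scaling (0.0588) and the mean of all probes (0.363). Its age call was also lost with the mean of all probes (0.41, adjusted p = 0.644). Of 10 other measured ADAM genes, 7 were above background in a group and limma called 0 in any contrast. At an unadjusted p under 0.05 there were 0 of the 10 for tissue at E10 or E9, beside 13.9% and 11.5% of all genes. For age there were 2 in the AVC and 2 in the LV, beside 12.5% and 19.6% of all genes.

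Among the other inhibitors, Reck, a membrane-anchored inhibitor of MMP2, MMP9 and MMP14, was called in the same comparisons as Mmp14. It read 243, 343 and 256 in AVC E10 and 207, 179 and 172 in AVC E9, against 174, 163 and 154 in LV E10 and 122, 104 and 113 in LV E9. It was called higher in the AVC at E10 (log2 0.76, adjusted p = 0.0291) and over both ages (0.74, adjusted p = 0.00477), and higher at E10 than E9 over both tissues (0.56, adjusted p = 0.0142). With the mean of all its probes none of these calls was kept (adjusted p 0.372 to 0.772). Timp1 was not called in any contrast, at 850 ± 66.6 in AVC E10 and 407 ± 97.0 in AVC E9, against 650 ± 318 in LV E10 and 332 ± 39.7 in LV E9. Timp4 was not above background on all arrays of any group.

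The proprotein convertase Furin, which cuts the propeptides of MMP14 and of ADAMTS enzymes, was called in all tissue comparisons. It read 3349, 2751 and 2928 in AVC E10 and 2805, 2183 and 2590 in AVC E9, against 1135, 1083 and 1100 in LV E10 and 1418, 1310 and 1516 in LV E9. The log2 difference was 1.44 at E10 (adjusted p = 0.000966) and 0.83 at E9 (adjusted p = 0.0144). With the mean of all its probes the adjusted p was 0.396 at E10 and 0.917 at E9. Pcsk6, another convertase, was lower in the AVC at E9 (-2.04, adjusted p = 0.033), with means of 63.7 in AVC E9 and 262 in LV E9. That call was lost in 8 of 12 fits leaving out 1 array, and with the mean of all probes the difference was -0.28 (adjusted p = 1).

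**Figure D4:**
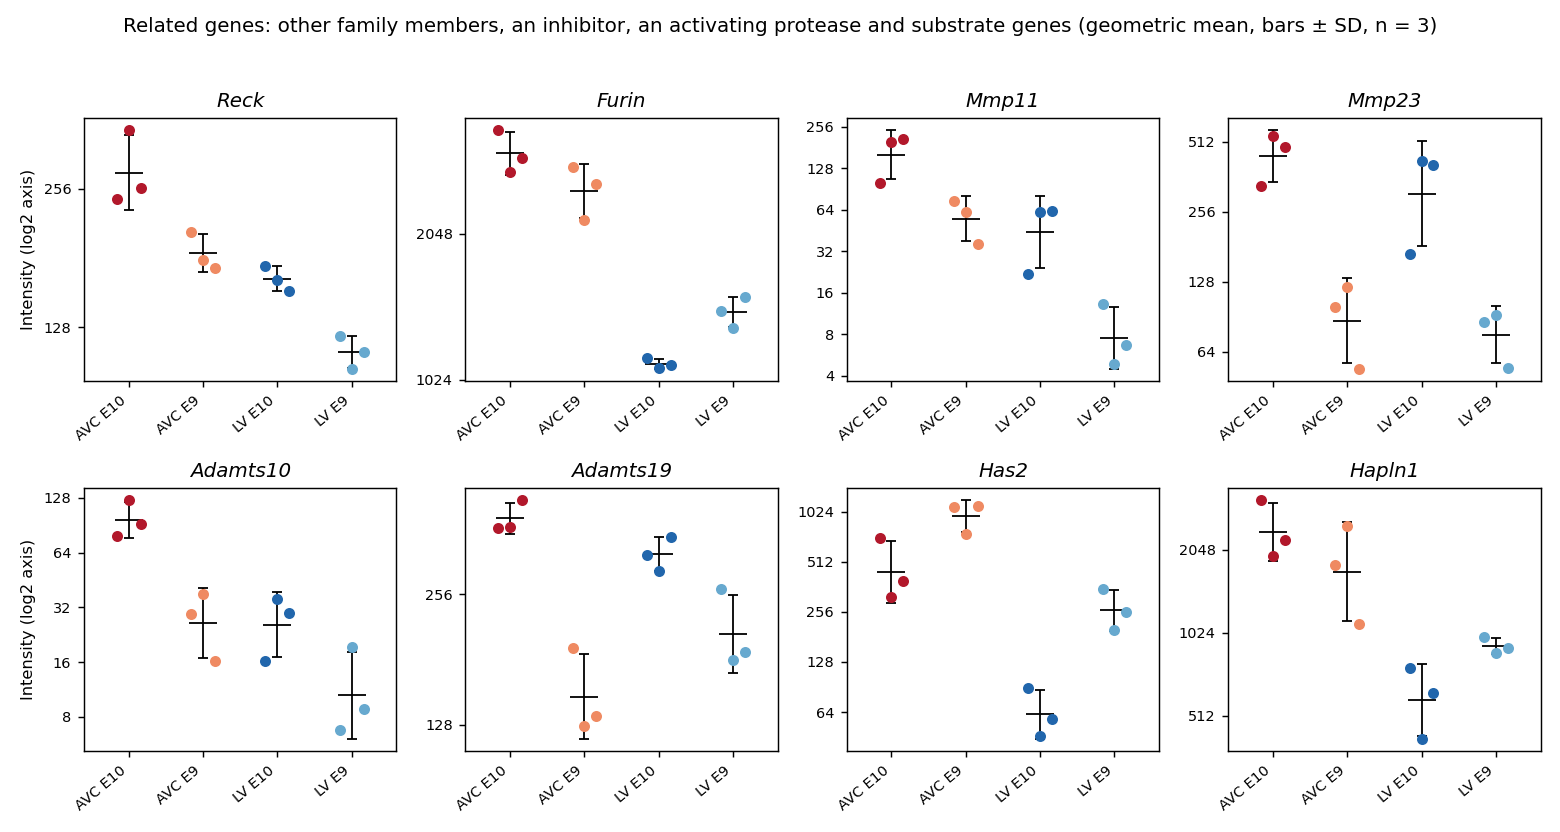
Intensity of 8 related genes on each array (log2 axis, replicates 1 to 3 from left to right, geometric mean and SD of each group). Furin and Has2 separate AVC from LV at both ages, and Mmp23 and Adamts19 are higher in both E10 groups.

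Some genes of the cushion jelly were higher in the canal and others were not. Of 9 measured genes for hyaluronan and its proteoglycans, 3 were called higher in AVC at E10, where 2.06% of all genes were. Only 4 of the 9 had a positive difference at E10, and the median was 0. All AVC arrays lay above all LV arrays for 4 of the 9 and below them for 1, as for 13.1% and 2.68% of all genes. In all, 6 of the 9 were above background in a group. Has2, the hyaluronan synthase, averaged 473 ± 212 in AVC E10 and 979 ± 198 in AVC E9, against 64.6 ± 22.4 in LV E10 and 268 ± 76.9 in LV E9 (log2 2.84 at E10, adjusted p = 0.0122). It was lower at E10 than at E9 over both tissues (-1.59, adjusted p = 0.0131), the direction of Adamts9. The hyaluronan receptor Cd44 (1.27, adjusted p = 0.0142) and the link protein Hapln1 (2.02, adjusted p = 0.0223) were higher in AVC at E10 as well. With the mean of all probes the Cd44 call was lost (0.44, adjusted p = 0.138). Another link protein, Hapln3, was lower at E10 over both tissues (-1.72, adjusted p = 0.00903). Vcan, the versican that ADAMTS1 and ADAMTS9 cut, was not called in any contrast. It averaged 546 ± 65.9 in AVC E10 and 588 ± 205 in AVC E9, against 229 ± 105 in LV E10 and 407 ± 119 in LV E9.

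Of 10 collagen, laminin and other basement membrane genes, limma called 0 between tissues (1 at E10 and 0 at E9 at an unadjusted p under 0.05). It called 2 higher at E10 over both tissues, where 4.62% of all genes were called higher. Col3a1, a fibrillar collagen, averaged 1292 ± 458 in AVC E10 and 324 ± 32.6 in AVC E9, and 695 ± 121 in LV E10 and 342 ± 67.01 in LV E9 (log2 1.48, adjusted p = 0.0074). Nid1, a basement membrane linker, followed (0.79, adjusted p = 0.0418). Of 11 neuregulin, EGF receptor and LGI genes, Lgi2 alone was called between tissues, where 5.47% of all genes were called over both ages. It read 216, 148 and 152 in AVC E10 and 172, 134 and 159 in AVC E9, against 249, 377 and 427 in LV E10 and 575, 388 and 431 in LV E9 (log2 -1.29 over both ages, adjusted p = 0.00527), the reverse of Adam23. Egfr was higher at E10 over both tissues (1.22, adjusted p = 0.0338), but was not called with the mean of all probes (0.85, adjusted p = 0.211). With any 1 array left out, the tissue calls of Has2, Mmp11, Hapln1 and Lgi2 over both ages and the age calls of Has2, Hapln3, Mmp23, Adamts19 and Col3a1 over both tissues held, and that of Has2 for age within the LV was lost in 8 of 12 such fits. The age calls of Mmp17 and Nid1 were each lost in 10 of 12, those of Adamts10 in 8, Egfr in 7 and Mmp11 and Mmp16 in 6, and the E10 tissue calls of Hapln1 in 5, Reck in 4 and Cd44 in 2.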

How the data were processed

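Total RNA was labelled as biotinylated cRNA and hybridised to Illumina Mouse WG-6 v2 BeadChips. The values deposited by the authors are linear intensities for 45281 probes on 12 arrays. They had been background subtracted and scaled to 1 mean, and 34.7% were below 0. No source used here names the program behind these steps. GeneSpring GX is named in the methods for the study's own comparisons.

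Probe symbols were taken from the platform annotation, which gave 1 symbol for 34885 probes, several for 18 and none listed for 10378. Values under 1 were set to 1 (36.8% of values) and log2 taken. Group means of all 4 groups were fitted together with limma 3.58.1 in R 4.3.3 (lmFit, eBayes) over all probes, and two-sided p-values received Benjamini-Hochberg adjustment over 19057 genes in each of 7 contrasts. The script was tested on simulated data. The number of arrays, 3 a group, limits the precision. Folds are ratios of geometric means, and group means are arithmetic with the SD. For a gene not above background on any array of a group, only a bound is given.

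The members, the lists of related genes and the alternatives were chosen with earlier results of these data known, so counts over them are descriptions. Named genes are all members, the list genes called in any contrast, the label markers and the 2 genes most like each called member. The alternatives were 2 other floors, quantile and 75th percentile scaling, testing only genes above background, the mean of all probes, limma with trend and robust settings, a replicate block, leaving out each array, and leaving out 2 E10 arrays together. Whether a shared replicate number marks a pair is not given in the labels, and the main fit did not pair samples. Deviations of same-numbered samples from their group means correlated at -0.319 to 0.276 over 12 pairs. Between AVC E9 and LV E9 same-numbered samples were at 0.234, 0.0942 and 0.276, and differently numbered ones at -0.206 to 0.000976. Between AVC E10 and LV E10 same-numbered samples were at -0.0976, 0.103 and 0.121, and differently numbered ones at -0.35 to 0.209. Promoter windows came from RefSeq (GRCm38.p6).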

Additional observations from a re-analysis of the deposited data

How the results depend on the processing

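Counts are of the 7 members called. For AVC over LV at E10 the count of 2 became 1 with scaling to the 75th percentile (1.49% of all genes called). It became 1 with the mean of all probes (1.45% of all genes) and 4 when only genes above background were tested. At E9 the count of 1 became 0 with values under 30 set to 30, where 0.719% of all genes were called. Over both ages 3 became 5 with only genes above background and 1 with the mean of all probes (3.9% of all genes). For E10 over E9 in the AVC 0 became 1 with the floor of 30, where 0.771% of all genes were called. With only genes above background, 0 became 1 in the LV and 3 became 5 over both tissues. Of the 9931 genes tested in that setting, 6.22% were called for AVC over LV at E10, 13.4% over both ages, 9.72% for age in the LV and 21.1% over both tissues. With the number as a replicate block, 1 member was called for AVC over LV at E10 (2.2% of all genes). For age in the LV 1 was called (4.17% of all genes). Whether samples that share a number were paired is not given. Leaving out replicate 1 of AVC E10 and of LV E10 together, a setting chosen after seeing the data, called 4 members for age in the AVC, 3 in the LV and 5 over both tissues, while the share of all genes called became 5.24% in the AVC, 14% in the LV and 18.3% over both tissues, against 0.551%, 2.37% and 8.1% with all arrays. Leaving out 1 array at a time gave 0 to 2 members at E10, 0 to 1 at E9, 2 to 5 over both ages, 0 to 4 for age in the AVC, 0 to 1 for age in the LV and 1 to 5 over both tissues. With the mean of all probes, which takes in probes never above background, the age difference over both tissues became -0.11 for Mmp14, -0.29 for Nid1 and -0.24 for Pdgfra, and the tissue difference of Pcsk6 over both ages 0.08. The calls of Adam23 for tissue over both ages and of Mmp2 for age over both tissues held in all 21 alternatives. That of Mmp14 for tissue over both ages was lost only with the mean of all probes (adjusted p = 0.347). The interaction called 0 members in all of them. Intensities near background, such as those of Adam23 in the LV, have no order among them.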
